A study of Mus musculus with 2 samples.

Results

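Lower outer root sheath keratinocytes were taken from single-cell RNA libraries of mouse back skin by the genes each cell held, and made up 612 of 3982 gated keratinocytes, of 8206 cells that passed the limits on quality and of 10622 cell barcodes in all. There were 358 such cells in the control library and 254 in the Gli2EKO library. A cell was counted when it held at least 10 UMIs (unique molecular identifiers, each standing for 1 captured RNA molecule) of Krt5 and Krt14 per 10000, more of these than of the fibroblast collagens Col1a1 and Col1a2, and under 3 UMIs of the contractile genes Tagln and Acta2. Among these gated keratinocytes, a member had UMIs of at least 3 of 7 rule genes, Spon1, Ghr, Lgr5, Fgf5, Fndc1, Gnmt and Pla2g7. It also had to hold more of these than of 7 contrast genes found in stem-like cells of the outer root sheath, Adamts19, Nlgn1, Nkain2, Adamtsl1, Shisa2, Cacna1e and Robo2. The cells were thus chosen by the measured UMIs of these genes, so all that sets them apart from other cells of the same libraries is a description and was not tested.

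The cells came from epidermal whole mounts of back skin at postnatal day 2, freed by collagenase, DNase and trypsin. Each genotype is 1 library, and the number of mice in a library was not stated. The Gli2EKO label marks an epidermal knockout of the Hedgehog pathway transcription factor Gli2, in which a K14Cre transgene recombines a floxed Gli2 gene in keratin 14-expressing epithelium on a C57BL/6N background. The control is labelled as wild type, while the study's methods describe control littermates with the floxed gene and no Cre. With 1 library per genotype there is no replicate error, so that differences between the libraries carry neither test nor p-value, and every interval is an exact 95% interval for counting error alone. Mouse, litter and library cannot be told apart from genotype.

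The outer root sheath is the outermost epithelial layer of the hair follicle, continuous with the basal epidermis, and its lower part sits beside the bulb, where the hair matrix makes the hair shaft and the inner root sheath. Cells of the lower sheath are known for Lgr5, a receptor for R-spondins that amplify Wnt signals, and for the secreted Wnt inhibitor Sfrp1. Sonic hedgehog made in the matrix is sensed through the receptor Ptch1, which holds back the transducer Smo until ligand binds. Gli2 and Gli3 then act on target genes, among which are Ptch1 and Gli1 themselves.

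The control library held 71021773 UMIs and the Gli2EKO library 48866478, and no cell barcode was present in both. Members held a median of 12958.5 UMIs in the control and 11429.5 in the Gli2EKO library, from a median of 4218 and 3925.5 genes. Levels were set as CPM: a gene's UMIs in all members of a library, per 1000000 UMIs of those members. These totals came to 5307531 in the control and 3415418 in the Gli2EKO library. The polyA end of each RNA was captured, so that a level was not divided by gene length and is compared only between groups of cells for the same gene. The 3′ count of Gli2 does not check the genotype, since the deleted exons were not stated.

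Lgr5 was the rule gene found in most members. It gave 488 CPM in control and 391 CPM in Gli2EKO members, against 77.9 and 36.6 CPM in all other gated keratinocytes. Spon1, which encodes the matrix protein spondin 1, gave 215 and 213 CPM in members and 5.72 and 5.30 CPM in the others. Ghr, the growth hormone receptor, gave 353 and 301 CPM against 36.3 and 38.6 CPM. Between the libraries the log2 ratio, Gli2EKO over control, was -0.01 (-0.15 to 0.12) for Spon1, -0.23 (-0.34 to -0.12) for Ghr and -0.32 (-0.42 to -0.23) for Lgr5.

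Fndc1, a gene of a fibronectin domain protein, gave 146 CPM in control and 85.5 CPM in Gli2EKO members. Gnmt, glycine N-methyltransferase, which uses up S-adenosylmethionine, gave 325 and 175 CPM. Pla2g7, a secreted phospholipase that breaks down platelet-activating factor, lay the other way, at 112 CPM in control and 237 CPM in Gli2EKO members. Fgf5, a growth factor known for ending the growth phase of the hair, was nearly absent, with 24 UMIs in the control and 4 in the Gli2EKO library, so that the rule rested on the other 6 genes. In genome build GRCm39, Spon1 lies on chr7:113364999-113642610 on the plus strand and Lgr5 on chr10:115286216-115423685 on the minus strand.

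**Figure D1:**
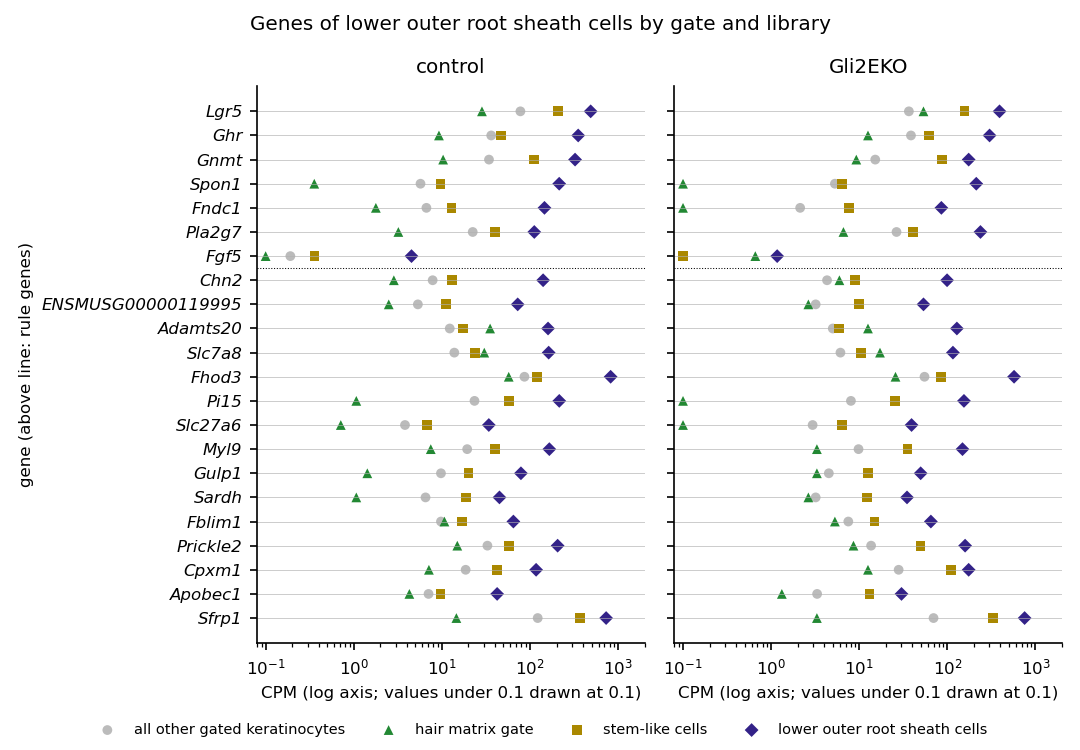
CPM on a log axis of the 7 rule genes (above the dotted line) and the 15 leading genes in lower outer root sheath cells (diamonds), stem-like cells (squares), the hair matrix gate (triangles) and all other gated keratinocytes (grey circles, which include stem-like and matrix cells), with 1 panel per library. The diamonds lie furthest right in every row of both panels; Sfrp1 stands at 731 CPM in control and 753 CPM in Gli2EKO members.

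After each cell was thinned to 5000 UMIs, which left 340 control and 239 Gli2EKO members and set aside 18 and 15 shallower ones, Lgr5 was found in 77.9% of control members (95% Clopper-Pearson interval 73.2 to 82.2) and 78.7% of Gli2EKO members (72.9 to 83.7). Before thinning the shares were 94.7% and 91.7%. Among thinned stem-like cells, 39.5% and 34.3% held Lgr5, as did 18.6% and 9.84% of all other gated keratinocytes. These gates were themselves divided by the rule genes, Lgr5 among them. In immune and endothelial cells with little keratin, where Lgr5 should be absent, the thinned share was 3.42% and 3.95%, at a median depth before thinning of 10533 and 11307 UMIs. In those of them with at least 30 UMIs of immune or endothelial genes, a limit set after the data were seen, it was 4.88% and 1.79%, at 12436 and 14479 UMIs. Spon1 was found in 46.5% and 47.3% of thinned members (60.9% and 57.9% before thinning), and in 5.13% and 7.89% of the immune and endothelial cells, or 0% and 3.57% of the stricter set. It was in 0 of 146 thinned control cells of the hair matrix gate, a Clopper-Pearson interval of up to 2.49% of cells with a UMI, and in 0.667% of the cells of that gate before thinning. Pla2g7 was found more often than Lgr5 or Spon1 in the immune and endothelial cells, at 12.0% and 21.1% after thinning, or 12.2% and 25% of the stricter set. Of thinned members, 43.8% and 64.4% held it (72.1% and 83.5% before thinning).

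Sfrp1, the secreted Wnt inhibitor, was a marker of the lower sheath that the rule did not use, although it was measured in the same cells. Members held 731 CPM in the control and 753 CPM in the Gli2EKO library, stem-like cells 368 and 327 CPM, and the hair matrix gate 14.6 and 3.31 CPM. After thinning, 78.8% of control and 75.3% of Gli2EKO members held it (85.8% and 81.5% before). Of thinned stem-like cells, 56.2% and 55.4% held it, and of immune and endothelial cells 1.71% and 1.32%. Its level was thus higher in members than in stem-like and matrix cells of both libraries, which was not tested.

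The other genes that led in members were a mixed group. By a rule on size, the 15 leading genes were those with the largest ratio of members over other gated keratinocytes in the library where that ratio was smaller. They were Chn2, a regulator of Rac; ENSMUSG00000119995, a long non-coding RNA; Adamts20, a secreted metalloprotease; Slc7a8, a carrier of neutral amino acids; Fhod3, a formin that builds actin filaments; Pi15; Slc27a6, a fatty acid carrier; Myl9, a myosin light chain; Gulp1, an adaptor of engulfment; Sardh, sarcosine dehydrogenase; Fblim1, a protein of actin-linked adhesions; Prickle2, of planar cell polarity; Cpxm1; Apobec1; and Sfrp1. Their median log2 ratio over other cells was 3.10 in the control and 3.54 in the Gli2EKO library. Over stem-like cells alone the medians were 2.06 and 2.11, with the lowest gene at 0.99 and 0.67. Of 8807 genes with at least 100 UMIs in members, 398 (4.52%) were past 2-fold higher than in the other gated keratinocytes in both libraries, and 132 (1.5%) were past 2-fold lower. The genes lowest in members included the epidermal keratin Krt77, the ligand Wnt3, and Tgfb2, a TGF-beta ligand at 13.9 and 8.49 CPM in members and 316 and 273 CPM in stem-like cells.

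The lists are given as counts of their tested genes past 2-fold in both libraries, beside the 4.52% higher and 1.5% lower of all genes. Where a list holds rule genes, these are higher by the choice of the cells, and nothing is read from them. Of 27 genes of basement membrane, matrix and adhesion, 8 were past 2-fold higher. The rule genes Spon1 and Fndc1 were 2 of these, and the other 6 were the collagen IV chains Col4a1 and Col4a2, the laminin chains Lama5, Lamb1 and Lamc1, and tenascin C. Col4a2 stood at 249 CPM in control and 265 CPM in Gli2EKO members, against 49.5 and 47.0 CPM in the other cells. The hemidesmosome gene Col17a1, at 231 and 235 CPM in members and 391 and 352 CPM elsewhere, was not among them, and the anchoring fibril collagen Col7a1 and the matrix protein Postn were past 2-fold lower.

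Of 30 Wnt genes, 7 were past 2-fold higher in members, namely the rule gene Lgr5 and 6 others, Fzd2, Rspo1, Rspo3, Sfrp1, Tcf7l1 and Tcf7l2. For Rspo3 the log2 ratio, Gli2EKO over control, went from -0.38 to 3.99 when cells with high doublet scores were removed. It stayed below 0 under the other ways of choosing, scaling or averaging the cells. The control level of Rspo3 thus rested mainly on members with high doublet scores, and nothing is read from its place here. The ligands Wnt4, Wnt10a and Wnt16 and the receptor Fzd10 were past 2-fold lower. Lgr6, another R-spondin receptor and not a rule gene, stood at 43.3 and 41.9 CPM in members and at 197 and 190 CPM in stem-like cells. Of 16 growth hormone and IGF genes, Igf2r, Igfbp5, Igfbp7 and the rule gene Ghr were higher, while the fetal RNA H19 and the binding protein Igfbp2 were lower. Igfbp5, which binds insulin-like growth factors, stood at 174 and 131 CPM against 34.0 and 22.5 CPM.

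Of 10 FGF genes, the 4 past 2-fold higher were Dusp6, Etv4, Etv5 and Spred1, all known as genes that FGF receptor signals switch on or use as a brake. Etv4 stood at 108 and 110 CPM in members and 31.4 and 31.2 CPM in the others. The receptors Fgfr1 and Fgfr2 were not past that line. Of 13 genes of glycine, serine and methyl group metabolism, the rule gene Gnmt and 2 others, Ahcy and Cbs, were higher. Ahcy and Cbs act in turn on S-adenosylhomocysteine and homocysteine, which arise from methyl transfers such as that of Gnmt. Cbs stood at 196 and 142 CPM against 58.5 and 53.8 CPM. None of 17 BMP and TGF-beta genes was past 2-fold higher, and Bmp2, Bmpr1b, Tgfb2 and Tgfbi were lower.

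Among 19 transcription factors of the sheath and its stem cells, Lhx2, Tcf7l1, Tcf7l2, Tbx1 and Vdr were past 2-fold higher, and Sox21 and Klf5 lower. Tbx1 stood at 326 and 337 CPM against 70.9 and 49.7 CPM. Sox9, which specifies the outer root sheath, was not past the line: it stood at 257 and 300 CPM in members, below the 509 and 516 CPM of stem-like cells. Among 10 keratins only Krt8, a keratin of simple epithelia, was higher in members, and Krt14, Krt6a, Krt1 and Krt10 were lower. Of 12 Hedgehog genes, Hhip and Gli1, both targets of the pathway, were higher and the co-receptor Cdon was lower. Few cells held Hhip, at 3.82% of control and 3.77% of Gli2EKO members after thinning. The thinned shares were 4.29% and 4.57% in stem-like cells and 2.59% and 1.28% in all other gated keratinocytes. In immune and endothelial cells they were 5.13% and 3.95%, or 1.22% and 1.79% of the stricter set. Nothing is read from the place of Hhip here. Egr1 and Ier3 were higher among 20 stress response genes, and none of the 24 S phase and 28 G2 and M phase genes was past the line in either direction.

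The share of members differed with what they were divided by. Of gated keratinocytes, 358 of 2151 in the control (16.6%, interval 15.1 to 18.3) and 254 of 1831 in the Gli2EKO library (13.9%, 12.3 to 15.5) were members, a ratio of 0.833 (0.707 to 0.982). Of all cells that passed the limits, the shares were 7.39% (6.67 to 8.16) and 7.56% (6.68 to 8.50), a ratio of 1.02 (0.867 to 1.20). Gated keratinocytes themselves were 44.4% of the passing control cells and 54.5% of the Gli2EKO cells. Stem-like cells, chosen with the same gate by at least 3 contrast genes, went from 20.3% to 9.94% of gated keratinocytes, a ratio of 0.489 (0.409 to 0.583). The hair matrix gate went from 6.97% to 4.48%, a ratio of 0.642 (0.485 to 0.846). The members' ratio was thus the nearest to 1 of the 3, and it passed to the other side of 1 with the wider denominator.

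The line drawn by the rule ran through a slope. In the control 79 members held UMIs of exactly 3 rule genes, 99 of 4, 106 of 5, 69 of 6 and 5 of all 7. In the Gli2EKO library the numbers were 79, 64, 63, 48 and 0, so that members with exactly 3 made up 22.1% of control and 31.1% of Gli2EKO members. Just outside the line, cells with 2 rule genes held 58.2 CPM of Sfrp1 in the control and 56.4 CPM in the Gli2EKO library. Just inside, with 3, the values were 335 and 275 CPM, and with 6 they were 1004 and 1230 CPM. Cells with 3 genes also held more of the suprabasal keratin Krt10, at 760 CPM in the control and 2739 CPM in the Gli2EKO library, against 108 and 96.9 CPM with 4 and 107 and 90.3 CPM with 5. With 6 they held 750 CPM in the control and 105 CPM in the Gli2EKO library, so that Krt10 did not drop steadily with the number of rule genes. Most Krt10 UMIs of Gli2EKO members came from a single cell, as given below. The 2739 CPM at 3 rule genes thus rested mainly on that cell. A further 40 control and 25 Gli2EKO cells held 3 or more rule genes but as many contrast genes, and were left out.

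**Figure D2:**
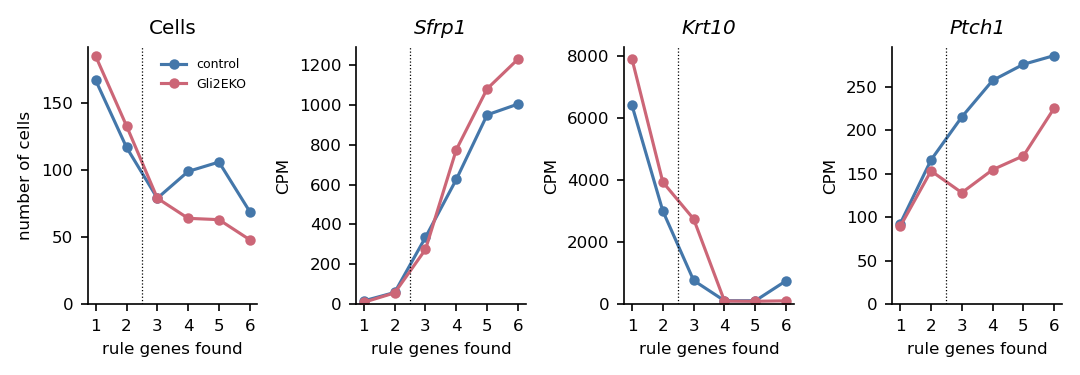
Number of gated cells, and CPM of Sfrp1, Krt10 and Ptch1, by the number of rule genes found in a cell (x axis) for the control (blue) and Gli2EKO (red) libraries; cells with more contrast than rule genes, or as many, are left out, and members lie right of the dotted line. Sfrp1 climbs from 58.2 and 56.4 CPM at 2 genes to 1004 and 1230 CPM at 6, Krt10 drops between 3 and 4 genes but stands at 750 CPM again in control cells with 6, and Ptch1 lies lower in the Gli2EKO library at 3, 4, 5 and 6 genes. The Gli2EKO value of Krt10 at 3 genes rests mainly on a single cell.

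The contractile limit set aside about as many cells as it kept. A further 379 control and 215 Gli2EKO cells met every other condition but held 3 or more UMIs of Tagln and Acta2, the markers of smooth muscle and dermal sheath, at a median of 13895 and 13140 UMIs. Sfrp1 was lower in these cells, at 282 and 235 CPM, and Ghr higher, at 657 and 684 CPM. Lgr5, at 492 and 394 CPM, and Spon1, at 208 and 207 CPM, were close to the levels in members. Myl9 stood at 563 and 650 CPM and Col4a2 at 537 and 525 CPM in these cells, against 166 and 148 CPM and 249 and 265 CPM in members. The limit on Tagln and Acta2 thus set aside cells with more Myl9 and Col4a2 than the members, and both genes lead or stand higher in members only beside the other gated keratinocytes, which hold none of these cells. Tagln was past 2-fold higher in members than in those keratinocytes, although the limit kept it low. Members are therefore those cells of a larger set with the rule genes that held few UMIs of Tagln and Acta2.

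Markers of other cell types were not absent. Members with at least 20 UMIs per 10000 of suprabasal, companion layer, sebocyte, inner root sheath, hair shaft or melanocyte markers numbered 50 in the control (14.0%, 10.5 to 18.0) and 47 in the Gli2EKO library (18.5%, 13.9 to 23.8). Of these, 26 and 27 held exactly 3 rule genes, and their median depth was 20239.5 and 15381 UMIs, against 12394.5 and 11131 in the other members. The summed level of 7 suprabasal markers was 1065 CPM in control and 2770 CPM in Gli2EKO members, and 4783 and 8584 CPM in the other gated keratinocytes. Companion layer markers summed to 570 and 1233 CPM, inner root sheath markers to 175 and 283 CPM, sebocyte markers to 341 and 332 CPM and fibroblast markers to 298 and 276 CPM. Melanocyte markers summed to 256 and 173 CPM, hair matrix markers to 88.9 and 82.9 CPM, immune markers to 44.8 and 4.98 CPM and endothelial markers to 4.71 and 17.3 CPM. The sums for suprabasal, companion layer and inner root sheath markers were higher in Gli2EKO members, and those for melanocytes and immune cells lower. Without the cell with most UMIs of each marker, 1 of 5 suprabasal markers stayed past 1.5-fold higher, beside 3 companion layer and 4 inner root sheath markers. At least 2 melanocyte markers were found in 8 control and 5 Gli2EKO members, and at least 2 immune markers in 2 and 0. No direction is read from the suprabasal, melanocyte and immune sums. Hair shaft markers summed to 29.6 and 20.2 CPM and contractile markers to 199.7 and 181 CPM. Of the defining markers, Krt36, Ptprc and Cd207 were at 0 in Gli2EKO members and Emcn in control members. Doublets were not removed from the main values, and 42 control and 24 Gli2EKO members had a doublet score in the top 8% of their library. Hbb-bs, a haemoglobin gene of red blood cells, stood at 33.2 and 6.73 CPM in members and 113 and 9.07 CPM in all other gated keratinocytes. The part of mixed cells, free RNA or intermediate states in these levels was not tested.

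Members also varied among themselves most in such genes. The 10 most variable genes in cells thinned to 5000 UMIs were Dct, of melanocytes, the suprabasal keratins Krt1 and Krt10, the upper follicle keratin Krt79, the epidermal calcium binding protein Calm4, Vim, Ebf1 and the stefin family genes Cstdc5, Stfa1 and Stfa3. None of them was a rule gene or a leading gene. In the Gli2EKO library 2916 of the 3564 Krt10 UMIs came from 1 cell.

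Between the genotypes, members differed in few genes. Of 8807 genes, 208 (2.36%) were past 1.5-fold higher in Gli2EKO members and 256 (2.91%) past 1.5-fold lower, at a median log2 ratio over all of them of -0.04. When the cell with most UMIs of a gene was left out of each library, 148 and 246 of these remained past the line. Of the 6065 genes found in at least 25% of members of each library, 48 were higher and 61 lower. These counts have no replicate behind them, and each list below is to be read against 2.36% and 2.91%. Counts of list genes on either side of 0 have no such share beside them. The median over all genes with at least 20 UMIs was itself below 0, at -0.04, so no shift of a list is read from those counts.

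Of 12 Hedgehog genes tested, 1 was past the line, and it was Ptch1, which was lower. Ptch1, the receptor and target gene on chr13:63656142-63721412 of the minus strand, gave 1376 UMIs or 259 CPM in control and 554 UMIs or 162 CPM in Gli2EKO members, a log2 ratio of -0.68 (-0.82 to -0.53). In stem-like cells it stood at 138 and 106 CPM, a ratio of -0.38 (-0.59 to -0.16), and in the hair matrix gate at 206 and 208 CPM. Over all other gated keratinocytes it stood at 109 CPM in both, a ratio of 0.00 (-0.08 to 0.08). The intervals of members and other cells did not overlap, but they hold counting error only, and the difference was not tested. After thinning, 59.7% of control (54.3 to 65.0) and 50.2% of Gli2EKO members (43.7 to 56.7) held Ptch1 (82.7% and 71.7% before), with 28.2% and 15.8% in immune and endothelial cells and 22% and 10.7% in the stricter set. In stem-like cells the thinned shares were 34.3% and 38.3% (51.5% and 58.8% before), higher in the Gli2EKO library where the CPM was lower, so that no order is read there.

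The lower Ptch1 level was present at each number of rule genes. It stood at 216 and 128 CPM in members with 3 rule genes, 258 and 155 CPM with 4, 276 and 171 CPM with 5, and 286 and 226 CPM with 6. In cells with 2, outside the line, it stood at 166 and 153 CPM. In the cells set aside for Tagln and Acta2 it stood at 344 and 172 CPM, a log2 ratio of -0.999 (-1.14 to -0.86). Those cells came from the same 2 libraries and are no replicate. Under 8 other ways of choosing, scaling or averaging the cells the ratio stayed below 0, but 5 of them left it within 1.5-fold. These were -0.44 when cells were chosen after thinning, -0.50 as a mean over cells, -0.55 without members rich in other markers, and -0.58 both without doublets and with at least 4 rule genes.

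The other Hedgehog genes lay closer together. Gli1, a target gene and factor, stood at 41.1 and 29.0 CPM, a log2 ratio of -0.50 (-0.86 to -0.15), and at -0.53 in all other gated keratinocytes. Among members with few cell cycle UMIs it stood at 25.4 and 29.6 CPM, from 27 and 21 UMIs, so that its direction turned. Gli2 stood at 105 and 103 CPM and Gli3, which mostly represses, at 152 and 129 CPM. The transducer Smo stood at 118 and 117 CPM and the ligand-binding target Hhip at 20.2 and 19.6 CPM. The co-receptors Gas1 and Boc stood at 111 and 120 CPM and at 67.8 and 80.2 CPM. All of these were within 1.5-fold between the libraries in the main values. The log2 ratio of Hhip, however, was 0.68 without doublets, -0.75 when cells were chosen after thinning and -0.64 in low cycling members. In the cells set aside for Tagln and Acta2, Hhip had 31 and 2 UMIs, a ratio of -3.02 (-6.13 to -1.04). No likeness between the libraries is therefore read for Hhip. Shh itself had 10 and 12 UMIs, which is little in a layer that is known to receive the ligand and not to make it.

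**Figure D3:**
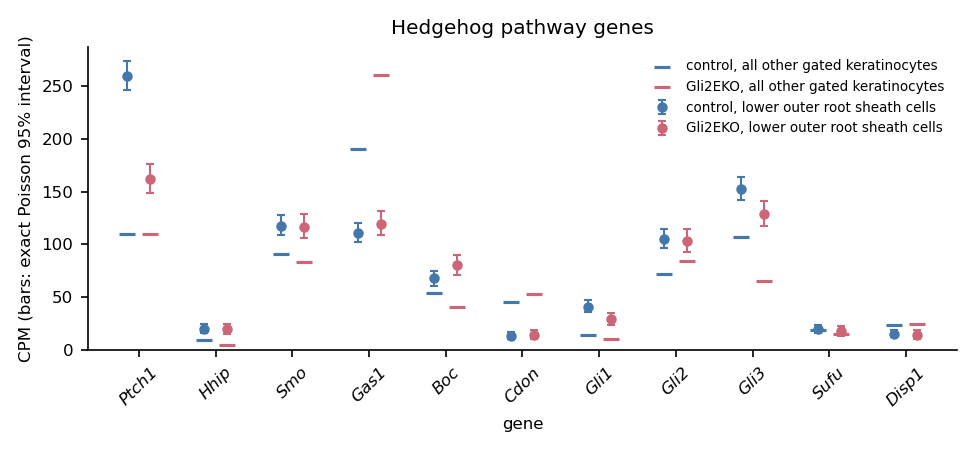
CPM of 11 Hedgehog pathway genes in lower outer root sheath cells of the control (blue) and Gli2EKO (red) libraries, as points with exact Poisson 95% intervals, with short bars for all other gated keratinocytes of the same library. Ptch1 stands at 259 and 162 CPM in members against 109 CPM in the others of both libraries, while Smo, Gli2 and Hhip have overlapping intervals.

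The Wnt genes had 2 of 30 higher and 2 lower, with a list median of 0.05. The ligand Wnt10a stood at 14.9 CPM in control and 29.0 CPM in Gli2EKO members, a log2 ratio of 0.96 (0.52 to 1.41), and the inhibitor Wif1 at 9.80 and 17.6 CPM, 0.84 (0.28 to 1.41). The R-spondin Rspo1 stood at 16.0 and 9.37 CPM, -0.77 (-1.41 to -0.17), and the factor Tcf7 at 14.5 and 8.20 CPM, -0.82 (-1.50 to -0.18). All 4 rest on under 100 UMIs in each library, and Wif1 lay within 1.5-fold in 3 of 8 alternatives. The abundant members of the list were close, with Sfrp1 at a log2 ratio of 0.04 (-0.03 to 0.11), Tcf7l2 at 421 and 417 CPM and Lgr4 at 227 and 223 CPM. In all other gated keratinocytes Sfrp1 had a ratio of -0.81 (-0.90 to -0.73); those cells include the stem-like cells, whose share was also lower.

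Growth hormone and IGF genes had 2 of 16 higher and 0 lower by this 1.5-fold line, with no test behind it. Of 21 measured genes 17 had ratios below 0, at a list median of -0.23 beside -0.04 over all genes. H19 stood at 91.8 and 163 CPM, 0.83 (0.65 to 1.01), and Igfbp2 at 26.6 and 62.4 CPM, 1.23 (0.92 to 1.55). Igfbp2 had a ratio of 1.18 in all other gated keratinocytes too, and both genes turned to below 0 in members with at least 4 rule genes, at -0.42 for H19 and -0.10 for Igfbp2. Jak2, the kinase of the growth hormone receptor, stood at 59.3 and 41.0 CPM and Igf1r at 244 and 195 CPM. In the FGF list Spry1, a feedback inhibitor, was past the line at 19.6 and 31.3 CPM, and 0 of 10 genes were lower. Its log2 ratio of 0.68 lay within the line in 4 of 8 alternatives, at 0.56 without doublets, 0.54 as a mean over cells, 0.41 when cells were chosen after thinning and 0.22 in low cycling members. The list median was -0.07, and Etv4, Dusp6 and Fgfr1 stood at 108 and 110, 78.9 and 88.4, and 202 and 192 CPM.

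Of 17 BMP and TGF-beta genes, Bmp7 was past the line higher, at 24.3 and 38.1 CPM, and Bmp2 and Tgfb2 lower, at 16.4 and 7.61 CPM and at 13.9 and 8.49 CPM. The list median was -0.11. Bmp2 had 33 of its 87 control UMIs in 1 cell and turned to a ratio of 0.32 when doublets were removed. Bmp7 lay within 1.5-fold in 5 of the 8 alternatives, among them at 0.17 with at least 4 rule genes and 0.35 without members rich in other markers. Tgfb2 lay within it at -0.56 without the top cells.

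Among transcription factors, Nfatc1, which keeps follicle stem cells at rest, was higher and Nfia lower, of 19 tested, at a list median of 0.01. Nfatc1 stood at 21.1 CPM in control and 43.3 CPM in Gli2EKO members, a log2 ratio of 1.04 (0.67 to 1.41). It stood at 200 and 228 CPM in stem-like cells. In all other gated keratinocytes its ratio was -0.59 (-0.69 to -0.49). Nfia, a nuclear factor I gene, stood at 317 and 197 CPM, -0.69 (-0.82 to -0.56), while its relative Nfib stood at 2230 and 1844 CPM. Barx2 at 727 and 783 CPM, Lhx2 at 241 and 204 CPM, Tbx1 at 326 and 337 CPM and Vdr at 315 and 248 CPM did not pass the line.

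Keratins split by layer. The basal and sheath keratins Krt5, Krt14, Krt15 and Krt17 stood at 3026 and 3402, 3020 and 3584, 1158 and 1287, and 3777 and 4363 CPM in the control and Gli2EKO library. Of 10 keratins tested, Krt6a, Krt16, Krt79, Krt1 and Krt10 were past the line higher and Krt8 lower, and the list median was 0.32. Krt8 stood at 33.0 and 14.3 CPM, -1.20 (-1.69 to -0.74), and at -1.79 in the cells set aside for Tagln and Acta2. Krt79 stood at 139 and 564 CPM, but its ratio of 2.03 became -0.07 without the members rich in other markers. Krt79 is itself one of those markers, so that value describes in part the cells left out. Krt10 went from 1.44 to -0.37 without the top cell in each library. Of the 5 suprabasal markers tested all 5 were higher, and 1 remained so without the top cells. Companion layer markers had 3 of 5 higher and inner root sheath markers 4 of 7, with 0 lower in both. Sebocyte markers had 2 of 6 higher and 2 lower, but 0 higher and 1 lower without the top cell, when their median went from 0.09 to -2.54. Of 4 melanocyte markers 2 were lower, and the 1 immune and 1 hair shaft marker tested were lower. None of 4 fibroblast, 2 contractile and 1 hair matrix markers was past the line, and of 5 contrast genes 3 were lower. Members were chosen in part by low UMIs of the contrast genes, Tagln, Acta2, Col1a1 and Col1a2. Nothing is therefore read from the fibroblast, contractile and contrast counts.

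Of 27 genes of basement membrane, matrix and adhesion, 0 were past the line higher, and Fndc1 and Lamb1 were lower. The list median was -0.17, with 20 of 27 ratios below 0, and no test stands behind the counts. Lamb1 stood at 210 and 139 CPM, -0.60 (-0.76 to -0.44), just past the line, and it lay within it under 5 other ways of choosing or scaling the cells. Lamc1 stood at 229 and 171 CPM, Lama5 at 144 and 122 CPM, Col4a1 at 367 and 325 CPM and Tnc at 394 and 323 CPM. Of 13 genes of glycine, serine and methyl group metabolism, Gnmt was lower, with a log2 ratio of -0.90 (-1.03 to -0.76), and 0 were higher. The list median was -0.28 and 11 of 14 ratios lay below 0, among them Ahcy at 45.2 and 36.3 CPM, Cbs at 196 and 142 CPM and Mat2a, which makes S-adenosylmethionine, at 312 and 249 CPM. Gnmt and Fndc1 belong to the rule, which required rule genes in both libraries, so their ratios describe the chosen cells.

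**Figure D4:**
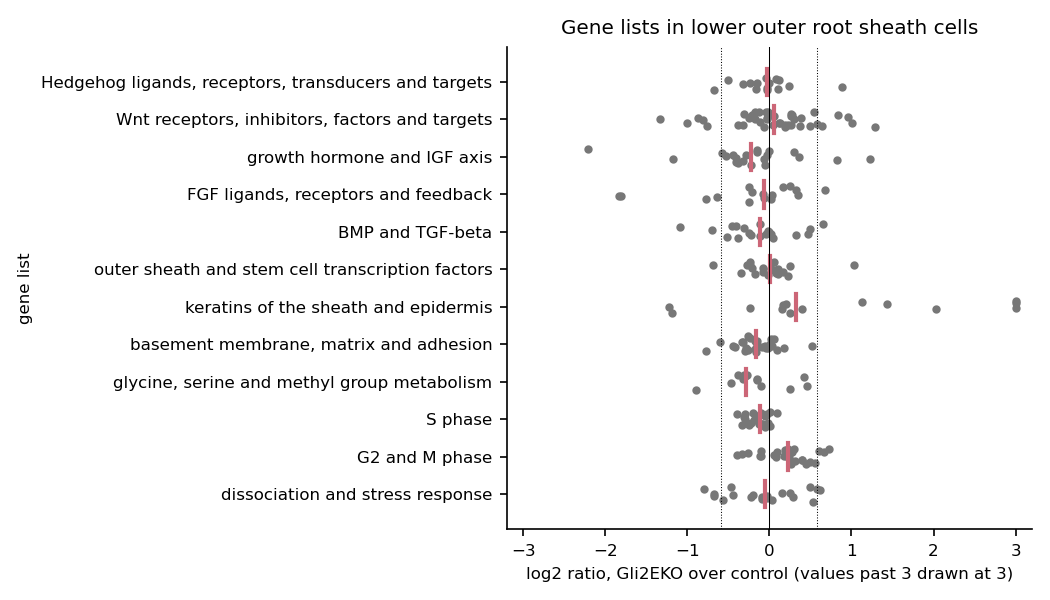
Log2 ratios, Gli2EKO over control, of the genes of 12 lists with at least 20 UMIs in lower outer root sheath cells (grey points, 1 per gene; values past 3 drawn at 3) and the list medians (red lines); dotted lines mark 1.5-fold. Medians run from -0.28 for glycine, serine and methyl group metabolism to 0.32 for the keratins, with S phase at -0.12 and G2 and M phase at 0.23.

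Most members held many UMIs of cell cycle genes. With at least 10 UMIs of S, G2 and M phase genes per 10000 as the line, 74.3% of control (69.4 to 78.8) and 75.6% of Gli2EKO members (69.8 to 80.7) were above it. Stem-like cells had 49.0% and 44.0%, the hair matrix gate 93.3% and 92.7%, and all other gated keratinocytes 61.5% and 57.6%. The members thus lay between stem-like and matrix cells in both libraries. Depth before thinning differed between these gates, with medians of 10512 and 9591.5 UMIs in stem-like cells and 17995 and 16237 UMIs in the matrix gate, and the share was not thinned.

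The genes of the phases lay on opposite sides of 0 by small amounts. Of 24 S phase genes 21 had ratios below 0, at a median of -0.12, and 0 were past the line. Of 28 G2 and M phase genes 22 had ratios above 0, at a median of 0.23, and the 3 past it were Ube2c at 203 and 324 CPM, Plk1 at 33.2 and 50.4 CPM and Cdc20 at 85.9 and 142 CPM. All 3 lay within it when cells were chosen after thinning, at log2 ratios of 0.23, 0.22 and 0.38, and Ube2c and Plk1 also without doublets, at 0.54 and 0.53. The 3 genes encode a ubiquitin enzyme, a kinase and an activator that act in mitosis. Mki67, a general marker of cycling cells, stood at 552 and 439 CPM, -0.33 (-0.42 to -0.24), and Pcna at 195 and 182 CPM. The S phase median was 0.14 when cells were chosen after thinning, so its sign rested on the gate.

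Members with few cell cycle UMIs, 92 in the control and 62 in the Gli2EKO library, held more of Sfrp1, Ghr and Spon1 than the 266 and 192 above the line. Sfrp1 stood at 1175 CPM in low and 620 CPM in high cycling control members, and at 1149 and 649 CPM in the Gli2EKO library. Ghr stood at 597 and 291 CPM, and at 442 and 264 CPM. Spon1 stood at 337 and 184 CPM, and at 265 and 199 CPM. Lgr5, Myl9 and Col4a2 were higher in low cycling members of the control alone. They stood at 535 and 477, 206 and 156, and 272 and 244 CPM in low and high cycling control members, and at 372 and 396, 127 and 154, and 214 and 279 CPM in the Gli2EKO library. Ptch1 was lower in low cycling members of both, at 190 CPM in low and 277 CPM in high cycling control members, and at 125 and 172 CPM in the Gli2EKO library. The low cycling members were also shallower, with medians of 9941.5 and 8993.5 UMIs against 14235 and 12721.5, and the part of depth was not tested.

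Of 20 dissociation and stress genes, Hspa1b was past the line higher, at 619 and 945 CPM, and Fos, Fosb and Atf3 lower. Fos stood at 1075 and 619 CPM, -0.80 (-0.87 to -0.72), and Atf3 at 293 and 184 CPM. Egr1, with 1055 and 773 CPM, lay lower by less. Fosb lay within the line in 4 of the 8 alternatives, and Hspa1b and Atf3 in 2 each. Hspa1b had a ratio of 0.60 in all other gated keratinocytes too, and the handling of each library cannot be told apart from its genotype. Of 4 sex-linked genes tested, 0 were past the line.

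The largest ratios in either direction came from single cells. Of the 10 genes with the largest ratios, 8 had most of their UMIs in 1 cell, as had 8 of the 10 with the smallest, and 0 of either were found in 25% of members. Ccer2 had 2496 UMIs in the control, 2493 of them in 1 cell. Tslp had 248 UMIs in the Gli2EKO library, all from 1 cell, and 0 in the control. Flg had 305 of 330 Gli2EKO UMIs in 1 cell. The potassium channel gene Kcnh7, with 168 and 11 UMIs, was spread more widely, and its log2 ratio was -3.30 (-4.33 to -2.42), while Gm47283 stood at 75.0 and 12.6 CPM with a ratio of -2.57 in members and -2.76 in all other gated keratinocytes.

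Among genes found in at least 25% of members, a small group differed more than Ptch1 did. These genes were chosen after their values were seen. Phlda1, a gene that growth signals switch on, stood at 75.0 and 189 CPM, a log2 ratio of 1.33 (1.15 to 1.52), Emb, an adhesion protein that escorts a carrier of lactate, at 72.2 and 147 CPM, 1.03 (0.83 to 1.22), and the small heat shock protein Hspb1 at 632 and 1279 CPM, 1.02 (0.95 to 1.08). In all other gated keratinocytes Phlda1 and Emb had ratios of 0.01 and -0.06, and Hspb1 one of 0.70. The collagen gene Col14a1 stood at 187 and 77.3 CPM, -1.28 (-1.48 to -1.08), and Cmah, an enzyme of sialic acid, at 164 and 76.4 CPM, -1.10 (-1.30 to -0.90). Both were lower in the other cells too, with ratios of -1.83 and -2.05. Pla2g7, of the rule, had a ratio of 1.09 (0.93 to 1.24) in members, 0.05 in stem-like cells and 0.24 in all other gated keratinocytes. The rule chose members in part by this gene, which also divided them from the other gates. Its ratios thus describe the chosen cells, and nothing is read from their difference.

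The cells set aside for Tagln and Acta2 allow the same genes to be read in a second set of cells from the same 2 libraries. There Phlda1 had a ratio of 1.08, Emb of 1.59, Hspb1 of 0.92, Pla2g7 of 1.23 and Nfatc1 of 0.78. Col14a1 had a ratio of -1.75, Cmah of -0.74, Krt8 of -1.79, Nfia of -0.61, Fndc1 of -0.80 and Gli1 of -0.77. Gnmt, in contrast, stood at 148 and 154 CPM with a ratio of 0.06 (-0.10 to 0.23), and Krt79 had one of -2.13, on the other side of 0 from the members. Bmp7 had a ratio of -0.17 and Lamb1 of -0.33. The 2 sets share their libraries, so a like value in both is no second measurement of the genotype. Both sets were also chosen by the rule genes, Pla2g7, Fndc1 and Gnmt among them.

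**Figure D5:**
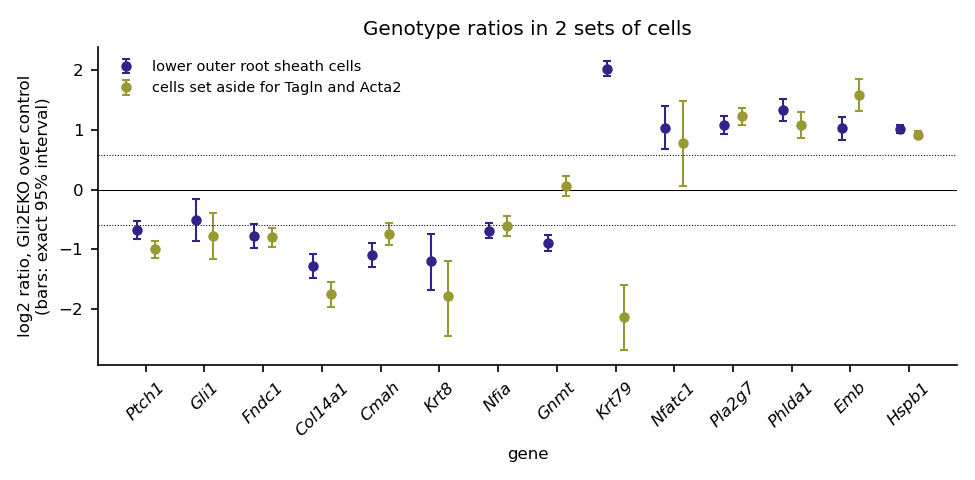
Log2 ratios, Gli2EKO over control, with exact 95% intervals of 14 genes in lower outer root sheath cells (dark blue) and in the cells set aside for Tagln and Acta2 (olive) of the same libraries; dotted lines mark 1.5-fold. Ptch1 lies at -0.68 and -0.999 and Pla2g7 at 1.09 and 1.23, whereas Gnmt lies at -0.90 and 0.06 and Krt79 at 2.03 and -2.13. Pla2g7, Gnmt and Fndc1 are rule genes, by which both sets of cells were chosen.

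Promoters of the lists were searched for core motifs in RefSeq sequences of build GRCm38.p6, from 250 bases before to 50 after each start, on both strands. The GLI core GACCACCCA was in 83 of 32851 promoters (0.253%) and in 0 of the 15 promoters held for 13 of the 17 Hedgehog genes, 0 of 6 of the rule genes and 0 of 17 of the leading genes. Of the 39 promoters held for the Wnt list, 0 had the GLI core. The TCF core ATCAAAG was in 3.73% of all promoters. It was in 1 of 15 Hedgehog promoters (Disp1), 2 of 39 Wnt promoters (Sp5 and Wnt11) and 1 of 17 promoters of the leading genes (Prickle2). Of 6 promoters of the rule genes, 0 had it. A window this short says nothing of sites elsewhere.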

How the data were processed

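Per the labels and methods, cells from both libraries were run on a 10x 3′ polyA assay with on-chip multiplexing. The authors used Cell Ranger 9.0.1 with GRCm39 and GENCODE annotation and deposited the filtered matrices of UMI counts of 56694 genes, without normalization; 77 symbols are carried by several identifiers and were kept apart. CPM, percent and log2 values were computed here (Python 3.11.15, numpy 2.4.6, scipy 1.17.1, pandas 2.3.3).

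Cells were kept with over 1000 and under 8000 genes and under 15% mitochondrial UMIs, the study's limits. The study removed doublets with scDblFinder, which was not run here; removal of the 8% with the highest Scrublet scores (scanpy 1.11.5) was an alternative. The gate left 2659 control and 2128 Gli2EKO cells after the keratin minimum, 2597 and 2105 after the collagen limit and 2151 and 1831 after the contractile limit. A Wilcoxon test over cells, as in the study, was not made, since cells are not replicates. Shares carry Clopper-Pearson, CPM exact Poisson and log2 ratios exact conditional binomial 95% intervals. Only the log2 ratio intervals were run on simulated data, with Poisson counts, the counting error that they assume. That run says nothing of UMIs spread unevenly between cells. Genes past a fold line have at least 100 UMIs in members over both libraries, with 0.5 UMIs added; list medians use at least 20. Coordinates come from a GENCODE release of GRCm39, matched for 409 of 409 identifiers.

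The members and lists were chosen with earlier results of these data known. Genes named are those of the rule, its contrast, the marker and pathway lists, the 15 leading genes over other gated keratinocytes (found in 25% of members), the 10 largest and 10 smallest genotype ratios and the 10 most variable genes (mean at least 0.2). The genes found in 25% of members with the largest ratios, and those lowest in members, were chosen after their values were seen. Alternatives changed the doublets, the gate, the number of rule genes, the scaling, the minimum of UMIs and the cell cycle class. Those without the top cell, without members rich in other markers and with genes found in 25% of members were added after the data were seen, as was the stricter choice of immune and endothelial cells. Results for 2 genes that these rules would name are not reported here.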

Additional observations from a re-analysis of the deposited data

Results flagged for a closer look

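Wif1, a secreted inhibitor that binds Wnt ligands, was on opposite sides of 0 in 2 kinds of outer sheath cells: its log2 ratio, Gli2EKO over control, was 0.84 (0.28 to 1.41) in lower outer root sheath cells, from 52 and 60 UMIs, and -1.41 (-2.24 to -0.67) in stem-like cells. Without the cell with most Wif1 UMIs in each library the first value was 1.23, and it was 2.05 without doublets. It lay within 1.5-fold at 0.13 when cells were chosen after thinning, 0.29 in low cycling members and 0.45 as a mean over cells, on the same side of 0 in each. With 1 library per genotype the difference was not tested.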

How the results depend on the processing

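No paired analysis was possible because each genotype is 1 library, and no library could be left out. The share of gated keratinocytes was 14.0% in the control and 12.1% in the Gli2EKO library when cells were chosen after thinning, 13.0% and 9.56% with at least 4 rule genes, 22.1% and 21.1% with at least 2, 14.3% and 11.3% without members rich in other markers, and 7.39% and 7.56% of all passing cells, where the ratio was 1.02. The share above the cell cycle line was 87.7% and 89.4% at 5 UMIs per 10000 and 58.1% and 63.4% at 20. The leading genes had a median ratio over other cells of 3.99 in the Gli2EKO library with doublets removed.

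Genes higher by 1.5-fold numbered 124 both after thinning and with at least 4 rule genes; the latter left the keratin median at -0.030, and leaving out members rich in other markers left it at 0.10. Krt1, Krt10, Krt6a and Krt79 are among those markers, so the value of 0.10 describes in part the cells left out. Higher and lower genes numbered 5102 and 5493 with no minimum, 755 and 914 at 20 UMIs, 61 and 54 past 2-fold, and 48 and 61 among genes found in 25% of members. The S phase median was 0.14 after thinning, the stress median -0.20 without doublets, and in low cycling members the G2 and M phase and stress medians were -1.05 and 0.36. Low cycling members were chosen by the UMIs of the S, G2 and M phase genes, so that G2 and M phase median describes the choice. Of 43 named genes past the line, 42 kept their direction without doublets and 36 were still past the line, 40 and 31 with at least 4 rule genes, 42 and 30 after thinning, and 37 and 29 in low cycling members.

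Reversed values were H19 -0.42, Igfbp2 -0.10 and Krt10 -1.53 with at least 4 rule genes; Krt10 -0.0018 after thinning and -0.37 without the top cell; Bmp2 0.32 without doublets; Krt79 -0.072 and Krt6a -0.020 without members rich in other markers; and, in low cycling members, Igfbp2 -0.047, Bmp2 1.37, Tgfb2 0.58, Plk1 -1.74, Cdc20 -0.80 and Fosb 0.30. Plk1 and Cdc20 are among the genes whose UMIs set the low cycling class, so their values there describe that choice. Krt79 and Krt6a are among the other markers by which members were left out, so their values there do so in part. Causes of the other reversals were not tested. Nfatc1 stayed between 1.04 and 1.32, Pla2g7 between 0.94 and 1.17 and Krt8 between -1.37 and -0.89 under the alternatives run, while Ptch1 ran from -0.70 to -0.44. Pla2g7 is a rule gene, so its ratio describes the chosen cells.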
